A study of Arabidopsis thaliana with 48 samples.

Results

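ACC against control roots at 2 h is a comparison of 6 arrays: 3 hybridised with RNA from Arabidopsis thaliana roots kept for 2 h on medium with ACC, and 3 with RNA from roots kept for 2 h on control medium. They are 6 of the 48 arrays of the series and were chosen by their titles. ACC (1-aminocyclopropane-1-carboxylic acid) was given at 1 µM. All roots came from 6-day-old seedlings raised in continuous light on a nylon mesh, which was moved to the new medium at time 0, so that the control roots went through the transfer as well. The series holds both media at 0 h (under 5 min), 0.5, 1, 2, 4, 8, 12 and 24 h with 3 arrays each. The labels give the species and the tissue but no genotype, and they number the replicates but do not call them separate cultures. The p-values therefore cover only the spread between these samples, which may be technical. Levels are the deposited log2 probe set signals. A difference is the ACC mean minus the control mean, followed by its standard error (SE), with n = 3 arrays in each group unless ACC replicate 3 is left out. A probe set is a group of short probes for one transcript, and 22739 of them were tested with limma over all 48 arrays. A call means a Benjamini-Hochberg adjusted p below 0.05.

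ACC is the direct precursor of ethylene, a gaseous hormone that plant cells make from it with ACC oxidases. Ethylene receptors in the endoplasmic reticulum are active without the hormone and hold back EIN2 and the transcription factor EIN3, and ethylene lifts that block. In roots the hormone is best known for slowing cell elongation, for promoting root hairs and for acting in part through auxin made and moved in the root tip.

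ACC replicate 3 lay nearer to the control arrays than the other ACC arrays did. This was seen on probe sets called in the contrasts of other times. Those contrasts share no array with the 2 h contrast, but all contrasts share the same estimate of the spread. Over the 469 probe sets called higher on ACC at 4 h (2.06% of those tested), the median difference from the control mean of 2 h was 0.51 on ACC replicate 1, 0.65 on replicate 2 and 0.11 on replicate 3. The control arrays, each set against the mean of the other control arrays, gave -0.12, 0.11 and 0.02, so ACC replicate 3 was level with the highest of them. Over the 482 probe sets called lower at 4 h (2.12%) the medians were -0.45, -0.58 and -0.09 on ACC replicates 1, 2 and 3, against 0.07, 0.01 and -0.06 on control replicates 1, 2 and 3. On the 27 probe sets called higher at 0.5 h, ACC replicate 3 was at 0.00, whereas replicates 1 and 2 were at 0.78 and 0.64. On the 550 called higher at 8 h it was at 0.23, against 0.13 on the highest control array. Within the same replicate number, the median difference over the 469 probe sets was 0.61, 0.58 and 0.12 for numbers 1, 2 and 3. The plot of the 6 arrays on probe sets from other times shows this for both directions.

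**Figure D1:**
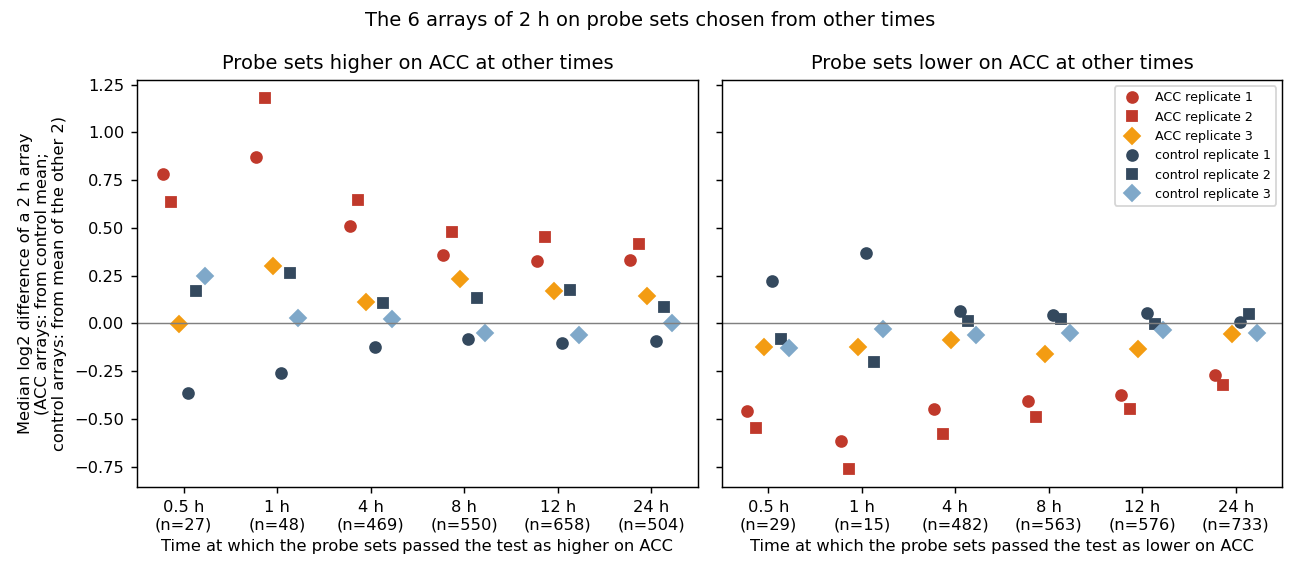
Median log2 difference of each 2 h array on probe sets called higher (left) or lower (right) on ACC at another time, with ACC arrays set against the control mean and control arrays against the mean of the other control arrays. ACC replicates 1 and 2 stand apart from the control arrays on each set, while ACC replicate 3 lies near them, at 0.11 on the 469 probe sets called higher at 4 h.

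Across all tested probe sets, ACC replicate 3 correlated at r = 0.982 with control replicate 3 and at 0.974 and 0.970 with ACC replicates 1 and 2, which correlated at 0.985 with each other. ACC replicates 1 and 2 were as close to the control arrays of their own number, at 0.984 and 0.982. Control replicate 3 correlated at 0.973 and 0.972 with control replicates 1 and 2. The value of 0.982 for replicate 3 therefore does not by itself set ACC replicate 3 apart. With control replicates 1 and 2, however, ACC replicate 3 correlated at 0.978 and 0.978, above its values with the other ACC arrays. ACC replicates 1 and 2 each had their highest correlation with each other. These correlations run over probe sets and are descriptions. RNA quality was measured on 3 control transcripts. The GAPDH control signal was higher at its 3' end than at its 5' end by 1.18, 1.08 and 0.382 on ACC replicates 1, 2 and 3, against 0.607, 0.903 and 0.799 on the control arrays. ACC replicate 3 was thus the lowest and ACC replicates 1 and 2 the highest of the 6. For ubiquitin the values were 0.784, 0.971 and 0.633 on ACC, against 0.7, 0.642 and 0.574 on control medium, and for actin 3.78, 3.42 and 3.16, against 3.34, 3.29 and 3.17. On these ACC replicates 1 and 2 were again the highest arrays, while ACC replicate 3 lay within the control range for ubiquitin and level with control replicate 3 for actin. The part of RNA quality in the results was not tested beyond a fit with the GAPDH measure as a covariate, which called 92 probe sets (70 higher, 22 lower). The main results below are given with and without ACC replicate 3.

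After 2 h on ACC, 89 probe sets passed the test, 0.391% of the 22739: 62 were higher (0.273%) and 27 were lower (0.119%). Without ACC replicate 3, 364 passed (1.6%), of which 206 were higher (0.906%) and 158 lower (0.695%). The fit that takes the replicate numbers as blocks called 162 (0.712%), 104 higher and 58 lower. With and without ACC replicate 3, 85 probe sets were called in both, 59 higher and 26 lower, which is 95.5% of the 89 and 23.4% of the 364. For 83 of the 89 all ACC arrays lay on one side of all control arrays, where 9.28% of all probe sets had groups that did not overlap. The 89 were called on these same arrays, which favours groups that do not overlap. This count, and the groups of called genes below, are therefore descriptions and not further support for the calls. In bulk roots, fewer cells of a type and less RNA per cell cannot be told apart. The call counts rest on how the spread was estimated. On the 6 arrays alone limma called 0 probe sets, with 1105 (4.86%) at an unadjusted p below 0.05 and a lowest adjusted p of 0.241. On the 5 arrays without ACC replicate 3 limma called 3. Leaving out other single arrays also moved the count, to 28 without ACC replicate 1, 23 without ACC replicate 2, 26 without control replicate 1 and 58 without control replicate 3.

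Of the 89 probe sets, 44 have 1 gene symbol and can be named, 30 higher and 14 lower. Among the 29 genes described next, the 15 highest and all 14 lower ones, every call held without ACC replicate 3 and with replicate blocks. Only RTE1, AT2G39980 and AT5G01210 were still called whichever of the 6 arrays was left out.

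RTE1 and ARL, the ethylene pathway genes that changed, are both known as brakes on the response. RTE1, a membrane protein that acts with the receptor ETR1 to hold back ethylene signalling, measured 9.92, 10.12 and 9.67 on ACC replicates 1, 2 and 3, against 8.51, 8.89 and 8.42 on control replicates 1, 2 and 3. All ACC arrays lay above all control arrays, ACC replicate 3 among them. RTE1 rose by 1.296 ± 0.15 (2.45-fold, adjusted p = 6.73e-06), and by 1.41 ± 0.17 without ACC replicate 3 (adjusted p = 3.34e-06). ARL, an ARGOS-like membrane protein that promotes organ growth and lowers ethylene sensitivity, measured 10.70, 11.16 and 9.76 on ACC, against 8.31, 9.45 and 8.94 on control medium. Its groups did not overlap, but ACC replicate 3 was close to control replicate 2. ARL rose by 1.64 ± 0.28 (3.12-fold, adjusted p = 0.00187), and by 2.03 ± 0.28 without ACC replicate 3 (adjusted p = 3.21e-05). IAGLU, which joins glucose to the auxin indole-3-acetic acid, measured 9.82, 9.30 and 9.69 on ACC, against 8.42, 8.55 and 8.59 on control medium, with all ACC arrays above all control arrays. It rose by 1.09 ± 0.20 (adjusted p = 0.00461), and here ACC replicate 3 lay between the other ACC arrays, so that the difference without it was 1.04 ± 0.23. RTE1 kept its call throughout, whereas the call was lost without ACC replicate 1 for IAGLU (adjusted p = 0.0634), without ACC replicate 2 for ARL (adjusted p = 0.0528) and without control replicate 1 for ARL and IAGLU (adjusted p 0.0505 to 0.0539).

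The other measured members of ethylene perception and signalling did not pass. Of the 22 genes listed, 5 could be followed, 2 rose, 0 fell and the median difference was 0.02, or 0.15 without ACC replicate 3, against 0.00 over all probe sets. Of all tested probe sets 0.273% rose and 0.119% fell, or 0.906% and 0.695% without ACC replicate 3. RTH, the homologue of RTE1, measured 9.15, 9.37 and 9.29 on ACC, against 9.27, 9.42 and 9.35 on control medium, a difference of -0.08 ± 0.13 (adjusted p = 0.981). EIN3, the main transcription factor of the pathway, differed by 0.00 ± 0.16 and ETP2, an F-box protein that targets EIN2 for breakdown, by 0.02 ± 0.16 (adjusted p = 0.999 and 0.996). Each of these 3 genes had overlapping groups with and without ACC replicate 3. Of 17 ethylene biosynthesis genes, only AT1G12010, a member of the ACC oxidase family, could be followed. It measured 8.99, 8.44 and 8.03 on ACC, against 7.89, 7.88 and 7.29 on control medium. The groups did not overlap, yet the difference of 0.80 ± 0.33 missed the threshold (adjusted p = 0.466, and 0.188 without ACC replicate 3). At 4 h it was 1.56 ± 0.33 (adjusted p = 0.0029). None of the 20 listed ERF and EDF transcription factor genes has a probe set with 1 symbol here.

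A pair of acyltransferases of the HXXXD family, enzymes that transfer acyl groups in lipid and specialised metabolism, were among the highest. AT2G39980 measured 9.59, 9.95 and 9.24 on ACC, against 7.16, 7.82 and 7.82 on control medium. AT5G01210 measured 11.39, 11.31 and 11.004 on ACC, against 9.16, 9.98 and 9.63 on control medium. For both genes the lowest ACC array, replicate 3, was more than 1 log2 unit above the highest control array. The differences were 1.99 ± 0.30 (3.98-fold, adjusted p = 0.000373) and 1.64 ± 0.23 (3.13-fold, adjusted p = 0.000146). Without ACC replicate 3 they were 2.17 ± 0.34 and 1.76 ± 0.26. Another member of the family, AT1G31490, fell: it measured 6.43, 6.53 and 6.57 on ACC, against 7.01, 7.13 and 7.01 on control medium, with groups that did not overlap and a difference of -0.54 ± 0.10 (adjusted p = 0.0055). Its call was lost without ACC replicate 1 (adjusted p = 0.0634).

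Transcription factor genes from 3 families rose. AT2G43140, which encodes the basic helix-loop-helix protein bHLH129, measured 8.92, 9.49 and 7.17 on ACC, against 6.39, 7.18 and 6.59 on control medium. ACC replicate 3 lay just below control replicate 2, so the groups overlapped, while ACC replicates 1 and 2 were above all control arrays. The difference was 1.81 ± 0.32 (3.50-fold, adjusted p = 0.00292), and 2.49 ± 0.25 without ACC replicate 3 (adjusted p = 9.81e-08). bZIP44, a basic leucine zipper protein, measured 10.60, 10.42 and 10.50 on ACC, against 9.34, 9.28 and 9.87 on control medium. Its ACC arrays were close to one another and all above the control arrays, with a difference of 1.01 ± 0.20 (2.02-fold, adjusted p = 0.00834) and of 1.02 ± 0.22 without ACC replicate 3. MYBC1, a MYB-like protein, measured 10.12, 10.92 and 9.95 on ACC, against 9.17, 9.37 and 9.56 on control medium. Groups did not overlap, ACC replicate 2 was the highest array, and the difference was 0.96 ± 0.21 (adjusted p = 0.0206). Calls were lost without ACC replicate 1 for bZIP44 (adjusted p = 0.0634), without ACC replicate 2 for AT2G43140 and MYBC1 (adjusted p 0.0875 to 0.326), without control replicate 1 for MYBC1 and bZIP44 (adjusted p 0.097 to 0.176) and without control replicate 2 for MYBC1 and bZIP44 (adjusted p = 0.0537).

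**Figure D2:**
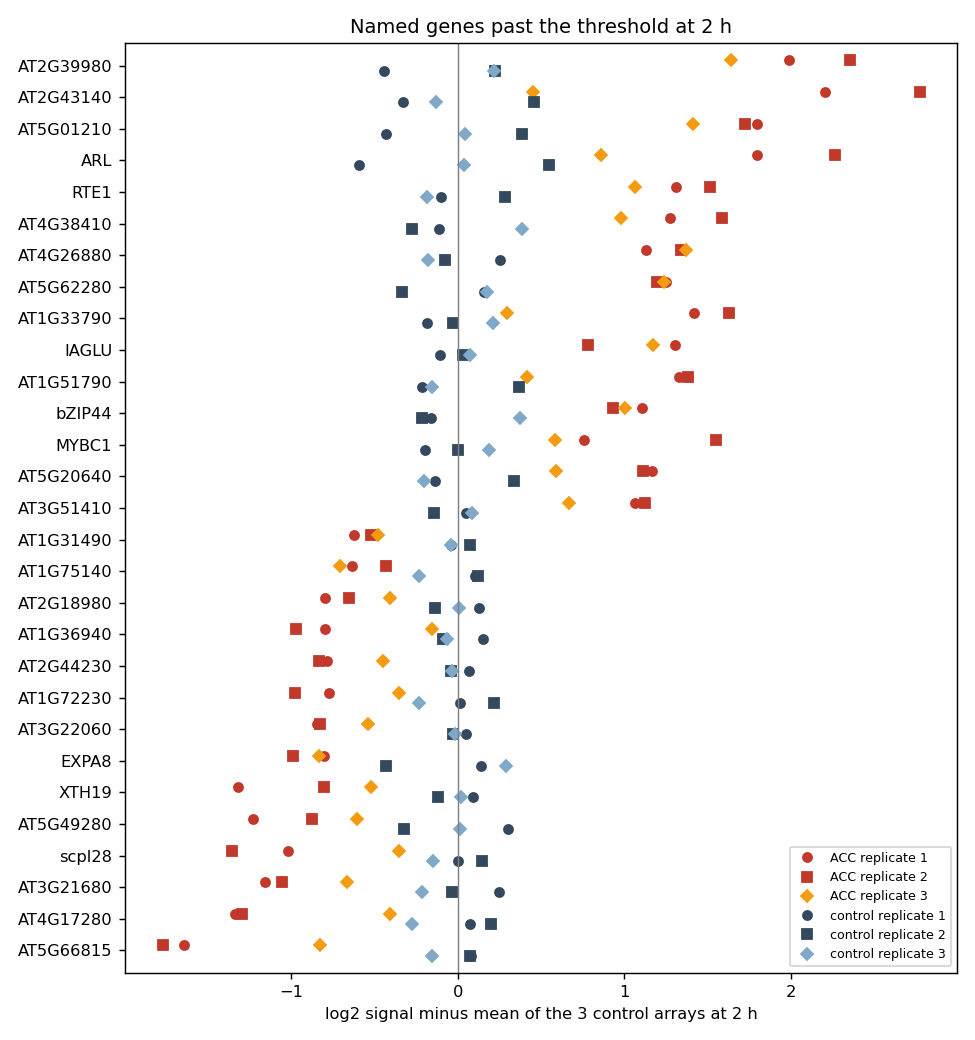
Log2 signal of each 2 h array minus the mean of the 3 control arrays, for the 29 named genes past the threshold, with genes in order of their difference. RTE1 and both higher acyltransferase genes have all ACC arrays more than 1 above the control mean, and ACC replicate 3 is the ACC array nearest to the control arrays for most genes.

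The remaining 7 of the 15 highest named genes encode proteins of varied kinds. AT4G38410, of the dehydrin family, rose by 1.28 ± 0.29 (2.43-fold, adjusted p = 0.0333): it measured 9.18, 9.49 and 8.89 on ACC, against 7.80, 7.63 and 8.29 on control medium. AT4G26880, which encodes a small cysteine-rich protein of the Stig1 family, measured 8.64, 8.85 and 8.88 on ACC, against 7.76, 7.43 and 7.33 on control medium. Here ACC replicate 3 was the highest array, and the difference was 1.28 ± 0.24 (adjusted p = 0.006). AT5G62280, a protein of unknown function, measured 9.11, 9.06 and 9.10 on ACC, against 8.02, 7.53 and 8.04 on control medium (difference 1.23 ± 0.27, adjusted p = 0.0251). These 3 genes had all ACC arrays above all control arrays.

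AT1G33790, of the jacalin lectin family, measured 8.99, 9.20 and 7.87 on ACC, against 7.39, 7.54 and 7.79 on control medium. ACC replicate 3 exceeded the highest control array by little, and the difference of 1.11 ± 0.24 (adjusted p = 0.0193) became 1.52 ± 0.22 without it. AT1G51790, a receptor kinase with leucine-rich repeats, had the same form, with 9.27, 9.33 and 8.36 on ACC, against 7.73, 8.31 and 7.79 on control medium. It rose by 1.04 ± 0.22 (adjusted p = 0.0193), and by 1.36 ± 0.22 without ACC replicate 3. AT5G20640, of the LURP-one-related family, rose by 0.96 ± 0.17 (adjusted p = 0.00331) and AT3G51410 by 0.95 ± 0.19 (adjusted p = 0.0101), both with groups that did not overlap. Among these 7 genes, AT4G38410 and AT4G26880 included, calls were lost without ACC replicate 1 for 6 of the 7 genes (adjusted p 0.0547 to 0.203), without ACC replicate 2 for all 7 genes (adjusted p 0.0503 to 0.296), without control replicate 1 for 4 of the 7 genes (adjusted p 0.0852 to 0.182), without control replicate 2 for 4 of the 7 genes (adjusted p 0.0537 to 0.137) and without control replicate 3 for AT1G51790 (adjusted p = 0.0991).

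The other 14 named genes called higher, with 15 probe sets, differed by 0.49 to 0.94, and each had all ACC arrays above all control arrays. Those described here were chosen after their values were seen. AT1G78020, a small zinc finger protein of the FLZ family, rose by 0.94 ± 0.21 and SGT1A, a co-chaperone of plant immunity, by 0.89 ± 0.19 (adjusted p = 0.0313 and 0.0206). AT1G50110, a branched-chain aminotransferase, rose by 0.71 ± 0.13 (adjusted p = 0.00324), and iqd15, a calmodulin-binding protein, by 0.66 ± 0.14 (adjusted p = 0.0193). AT5G04310, of the pectate lyase family, was called on both of its probe sets, at 0.77 ± 0.16 and 0.71 ± 0.16. AT5G17780, of the alpha/beta hydrolase family, was lost without ACC replicate 3 (difference 0.53 ± 0.12, adjusted p = 0.0251, and 0.0605 without it).

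Of the 14 named genes that fell, 4 encode proteins of the cell wall. XTH19, a xyloglucan endotransglucosylase/hydrolase that cuts and rejoins wall xyloglucan, measured 9.87, 10.39 and 10.68 on ACC, against 11.29, 11.08 and 11.22 on control medium. Its groups did not overlap, and it fell with a difference of -0.88 ± 0.21 (1.84-fold lower, adjusted p = 0.0471). EXPA8, an expansin that loosens walls, measured 6.80, 6.61 and 6.76 on ACC, against 7.74, 7.17 and 7.89 on control medium. All ACC arrays, replicate 3 included, lay below all control arrays, with a difference of -0.87 ± 0.19 (1.83-fold lower, adjusted p = 0.0263). AT5G49280, of the hydroxyproline-rich glycoprotein family, differed by -0.90 ± 0.19 (adjusted p = 0.0193) and AT2G18980, a class III peroxidase, by -0.62 ± 0.15 (adjusted p = 0.0471), both with groups apart. Without ACC replicate 3 the 4 differences were -1.06 ± 0.23, -0.90 ± 0.22, -1.05 ± 0.21 and -0.72 ± 0.16. Calls were lost without ACC replicate 1 for all 4 genes (adjusted p 0.0929 to 0.416), without ACC replicate 2 for all 4 genes (adjusted p 0.0903 to 0.258), without control replicate 1 for all 4 genes (adjusted p 0.182 to 0.27), without control replicate 2 for AT2G18980 and XTH19 (adjusted p 0.0537 to 0.0691) and without control replicate 3 for all 4 genes (adjusted p 0.0683 to 0.175).

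In the list of 28 cell wall loosening genes, 13 could be followed, 0 rose and 2 fell, EXPA8 and XTH19, and without ACC replicate 3 0 rose and 4 fell, EXPB1 and EXLA2 in addition. Of all tested probe sets 0.119% fell, and 0.695% fell without ACC replicate 3. All 13 had a difference below 0, as did 11249 of the 22739 tested, with values from -1.33 to -0.10, and the median was -0.72, against 0.00 over all probe sets. By array, the median difference from the control mean was -0.87, -0.60 and -0.52 on ACC replicates 1, 2 and 3. The median was thus below 0 on each ACC array, replicate 3 included. EXPB1, a beta-expansin, measured 7.37, 7.35 and 8.39 on ACC, against 9.48, 9.05 and 8.16 on control medium. ACC replicate 3 and control replicate 3 were alike, the other ACC arrays were low, and the difference was -1.19 ± 0.30 (adjusted p = 0.0623, and 0.0401 with the replicate block), or -1.53 ± 0.32 without ACC replicate 3 (adjusted p = 0.00478). EXLA2, an expansin-like gene, measured 6.50, 6.56 and 7.24 on ACC, against 7.90, 7.43 and 7.98 on control medium, with groups apart. Its difference was -1.004 ± 0.26 (adjusted p = 0.0694), or -1.24 ± 0.28 without ACC replicate 3 (adjusted p = 0.0108). EXLA1 had the lowest difference of the list, -1.33 ± 0.54, but control replicate 3 at 11.74 stood well above the other control arrays and the groups overlapped (adjusted p = 0.469). XTH21 differed by -0.58 ± 0.25 (adjusted p = 0.502) at 2 h and by -1.43 ± 0.25 at 4 h (adjusted p = 0.000311). Taking families by symbol, 15 of the 18 expansin genes and 7 of the 9 xyloglucan endotransglucosylase/hydrolase genes measured were below 0, with medians of -0.24 and -0.24. The expansins EXPA7 and EXPA18 and the gene XTH26 were placed in the root hair list, and differed by 0.55, 0.42 and 0.33. The absence of values above 0 among the 13 thus depends on how the lists were divided.

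A signalling peptide and other secreted or membrane proteins also fell. AT5G66815 encodes CEP5, the precursor of a small peptide hormone that restrains root branching. It measured 6.93, 6.80 and 7.75 on ACC, against 8.65, 8.65 and 8.42 on control medium. All ACC arrays were below all control arrays, ACC replicate 3 by the least, and the difference was -1.41 ± 0.29 (2.66-fold lower, adjusted p = 0.0189), or -1.70 ± 0.31 without ACC replicate 3 (adjusted p = 0.0018). AT4G17280, of a family of auxin-responsive membrane proteins with a cytochrome b561 domain, measured 8.86, 8.90 and 9.79 on ACC, against 10.27, 10.40 and 9.92 on control medium. The groups did not overlap but came close at replicate 3, and the difference was -1.01 ± 0.23 (2.02-fold lower, adjusted p = 0.0333). scpl28, a serine carboxypeptidase-like protein, differed by -0.91 ± 0.18 (adjusted p = 0.0118), AT3G22060, a secreted cysteine-rich protein, by -0.73 ± 0.17 (adjusted p = 0.0333) and AT1G72230, a cupredoxin, by -0.70 ± 0.17 (adjusted p = 0.0461). Each of these 3 had groups apart, and without ACC replicate 3 their differences were -1.19 ± 0.18, -0.83 ± 0.19 and -0.87 ± 0.18. Calls were lost without ACC replicate 1 for all 5 genes (adjusted p 0.0917 to 0.297), without ACC replicate 2 for all 5 genes (adjusted p 0.204 to 0.354), without control replicate 1 for all 5 genes (adjusted p 0.0677 to 0.182), without control replicate 2 for all 5 genes (adjusted p 0.0537 to 0.197) and without control replicate 3 for AT3G22060 (adjusted p = 0.0991). Of the 24 listed signalling peptides, 7 could be followed, 0 rose and 1 fell, CEP5, where 0.273% of all tested probe sets rose and 0.119% fell. With all arrays the 7 were below 0, as were 11249 of the 22739 tested, and the median of the 7 was -0.56. Without ACC replicate 3 the median was -0.31, and RALFL33 and CLE40 were above 0, at 0.12 ± 0.20 and 0.01 ± 0.13. The median by array was 0.00 on ACC replicate 1, -0.63 on replicate 2 and -0.83 on replicate 3.

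The last 4 named genes that fell have no role given here. AT3G21680 measured 7.34, 7.44 and 7.83 on ACC, against 8.74, 8.46 and 8.28 on control medium, with all ACC arrays below all control arrays and a difference of -0.96 ± 0.20 (adjusted p = 0.0187). AT2G44230, AT1G36940 and AT1G75140 differed by -0.69 ± 0.16, -0.64 ± 0.14 and -0.59 ± 0.12 (adjusted p = 0.0417, 0.0206 and 0.0193), each with groups apart. For AT1G75140 ACC replicate 3 was the lowest of the 6 arrays. Calls were lost without ACC replicate 1 for all 4 genes (adjusted p 0.126 to 0.23), without ACC replicate 2 for 3 of the 4 genes (adjusted p 0.12 to 0.313), without control replicate 1 for all 4 genes (adjusted p 0.166 to 0.203), without control replicate 2 for AT1G75140 and AT2G44230 (adjusted p 0.0757 to 0.0859) and without control replicate 3 for AT2G44230 (adjusted p = 0.102).

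Leaving out ACC replicate 3 added 279 calls, 146 of them named, and dropped 4. Over the 147 added calls that were higher, the median difference from the control mean was 0.82 on ACC replicate 1, 0.99 on replicate 2 and 0.04 on replicate 3. ACC replicate 3 was above all control arrays for 44 of the 147 (29.9%), where 26.9% of all tested probe sets were above all control arrays on it. Over the 132 added calls that were lower, the medians were -0.82, -0.87 and -0.14 on ACC replicates 1, 2 and 3, and ACC replicate 3 was below all control arrays for 54 (40.9%, against 24.0% of all tested). The added calls were chosen against the same control arrays and for missing the threshold when ACC replicate 3 was kept. That choice favours an ACC replicate 3 near the control arrays, here and in the genes below. These shares are therefore a description and are not a test of ACC replicate 3.

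Of the named genes, those with the highest and lowest differences without ACC replicate 3 are among these. AT5G48430, of the aspartyl protease family, measured 12.67, 13.16 and 9.18 on ACC, against 9.60, 9.68 and 8.27 on control medium. ACC replicates 1 and 2 were far above every control array and ACC replicate 3 lay among them. Its difference was 3.73 ± 0.52 (13.3-fold, adjusted p = 3.21e-05) without ACC replicate 3 and 2.49 ± 0.62 with it (adjusted p = 0.0594, and 0.0468 with the replicate block). AT5G40590, which has a C1 zinc-binding domain, measured 11.74, 11.91 and 8.59 on ACC, against 8.65, 9.001 and 7.94 on control medium, with the same form. It gave 3.301 ± 0.50 (9.85-fold, adjusted p = 0.000113) without ACC replicate 3 and 2.22 ± 0.57 with it (adjusted p = 0.0698). AT2G44380, another C1 domain gene, gave 1.42 ± 0.29 without ACC replicate 3 and 0.85 ± 0.32 with it. AT4G21870, of the small heat shock protein family, measured 9.68, 11.15 and 7.60 on ACC, against 6.78, 8.15 and 7.72 on control medium. ACC replicate 3 was again among the control arrays, and the difference was 2.86 ± 0.42 (adjusted p = 6.54e-05) or, with that array, 1.92 ± 0.48 (adjusted p = 0.0623, and 0.0401 with the replicate block).

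Signalling and wall genes followed. AT4G32950, a protein phosphatase of the PP2C family, measured 8.41, 9.07 and 6.45 on ACC, against 6.68, 6.78 and 6.58 on control medium. It rose by 2.06 ± 0.35 without ACC replicate 3 (adjusted p = 0.000643), which itself was the lowest of the 6 arrays. AT1G11330, a receptor kinase of the S-locus lectin type, rose by 1.43 ± 0.26 (adjusted p = 0.00145) and AT2G36690, an oxygenase that uses 2-oxoglutarate, by 1.98 ± 0.42 (adjusted p = 0.00624), both without ACC replicate 3 and with overlapping groups when it is kept. AT2G47550, of the pectin methylesterase family, measured 10.08, 9.92 and 9.33 on ACC, against 7.95, 8.32 and 9.20 on control medium. Here all ACC arrays were above all control arrays, with a difference of 1.51 ± 0.36 without ACC replicate 3 (adjusted p = 0.0192) and 1.29 ± 0.32 with it (adjusted p = 0.0623, and 0.0378 with the replicate block). AT3G18560 and AT1G11540, with no role given here, rose by 1.48 ± 0.29 and 1.45 ± 0.22 without ACC replicate 3 (adjusted p = 0.0031 and 0.000136). With all arrays and the replicate block AT3G18560 was past the threshold too (adjusted p = 0.0461).

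Among the genes that fell without ACC replicate 3 were a pair of the GH3 family, which joins hormones such as auxin to amino acids. GH3.17 measured 8.85, 7.82 and 9.94 on ACC, against 9.81, 10.17 and 9.92 on control medium. ACC replicates 1 and 2 were below every control array and ACC replicate 3 was level with them, with a difference of -1.63 ± 0.41 without that array (adjusted p = 0.0316) and -1.10 ± 0.41 with it (adjusted p = 0.367). AT1G23160 measured 5.98, 5.96 and 7.85 on ACC, against 8.08, 7.12 and 7.85 on control medium, and its difference was -1.71 ± 0.35 without ACC replicate 3 (adjusted p = 0.00388). AT4G25250, a pectin methylesterase inhibitor, measured 7.61, 7.48 and 8.51 on ACC, against 9.87, 9.73 and 8.46 on control medium. Replicate 3 of both media lay between the other ACC and the other control arrays, and the difference was -1.81 ± 0.40 without ACC replicate 3 (adjusted p = 0.00928) and -1.49 ± 0.37 with it (adjusted p = 0.059, and 0.0414 with the replicate block).

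AT5G04120, of the phosphoglycerate mutase family, had the lowest difference of the named genes without ACC replicate 3 and measured 7.27, 7.47 and 10.51 on ACC, against 9.99, 8.79 and 11.95 on control medium. Control replicate 3 was the highest array and control replicate 2 the lowest of the control arrays. The difference without ACC replicate 3 was -2.87 ± 0.77 (adjusted p = 0.0455). GSTU26, a tau glutathione S-transferase, differed by -2.14 ± 0.56 without ACC replicate 3 (adjusted p = 0.0401) and was likewise highest on control replicate 3, at 12.41. AT4G11210, of the dirigent family that guides lignan and lignin coupling, differed by -1.91 ± 0.46, and AT2G22930, a glycosyltransferase, by -1.50 ± 0.38 (adjusted p = 0.0233 and 0.034, without ACC replicate 3). AT5G47950, an HXXXD acyltransferase, differed by -1.36 ± 0.33 (adjusted p = 0.0241) and AT3G13950 by -1.39 ± 0.34 (adjusted p = 0.0255), and AT3G13950 had groups apart also when all arrays are kept.

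**Figure D3:**
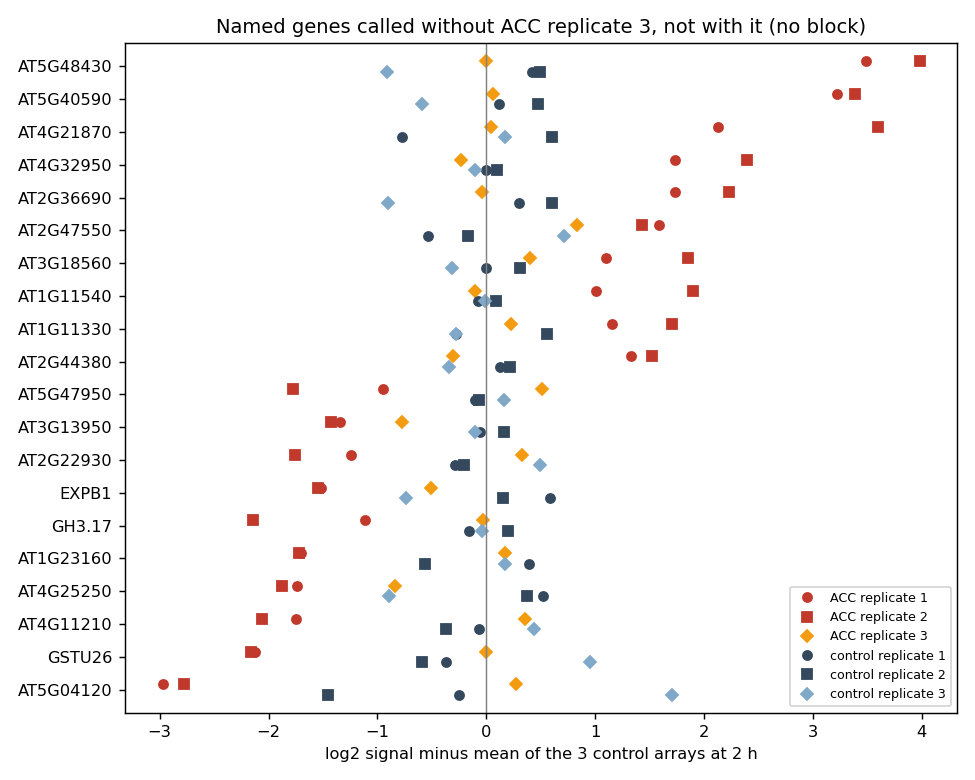
Log2 signal of each 2 h array minus the mean of the 3 control arrays, for 20 named genes past the threshold without ACC replicate 3 and not with it in the fit without replicate blocks (6 of them, AT5G48430, AT4G21870, AT2G47550, AT3G18560, AT4G25250 and EXPB1, passed with blocks). ACC replicates 1 and 2 lie far out, at up to 3.98 for AT5G48430, while ACC replicate 3 lies nearer to the control mean. The choice of these genes favours that position of ACC replicate 3.

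Auxin response genes did not move as a list at 2 h. Of 30 listed, 9 could be followed, and 0 rose or fell with or without ACC replicate 3, at a median difference of 0.02 and -0.05. GH3.3, a primary auxin response gene, measured 8.50, 8.02 and 7.13 on ACC, against 7.75, 7.91 and 8.51 on control medium, and its groups overlapped widely (difference -0.17 ± 0.56, adjusted p = 0.994). LBD16, which acts in lateral root formation, differed by -0.08 ± 0.22 and the homeobox gene HAT2 by -0.22 ± 0.25 (adjusted p = 0.993 and 0.955). None of the 22 listed genes of auxin synthesis and transport has a probe set with 1 symbol.

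Root hair genes did not pass. EXPA7, a root hair expansin, measured 9.54, 9.999 and 10.25 on ACC, against 9.42, 9.76 and 8.95 on control medium. ACC replicate 3 was the highest and control replicate 3 the lowest array, the groups overlapped and the difference was 0.55 ± 0.37 (adjusted p = 0.812). EXPA18 and XTH26 differed by 0.42 ± 0.37 and 0.33 ± 0.41 (adjusted p = 0.91 and 0.959), the 3 being all of the 20 listed genes that could be followed. Without ACC replicate 3 the values of EXPA7, EXPA18 and XTH26 were 0.39 ± 0.41, 0.25 ± 0.41 and 0.02 ± 0.45. Of 20 class III peroxidases, 14 could be followed, with 0 past the threshold at 2 h and a median of 0.02, or 0.13 without ACC replicate 3. At 4 h, 4 of the 14 rose, where 2.06% of all tested probe sets rose. AT2G18980, the peroxidase gene that fell, is not on that list. AT5G19890, the one with the highest difference, measured 7.04, 10.42 and 6.79 on ACC, against 5.75, 7.39 and 5.80 on control medium. ACC replicate 2 was by far the highest array, and the difference of 1.77 ± 0.71 did not pass (adjusted p = 0.454), whereas at 4 h it was 3.55 ± 0.71 (adjusted p = 0.00184). AT5G64100 had groups apart, at 13.40, 13.90 and 13.58 on ACC, against 12.65, 13.17 and 12.17 on control medium, with a difference of 0.96 ± 0.30 (adjusted p = 0.181).

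Genes of defence and stress lists were not past the threshold at 2 h. In the WRKY list 3 of 24 could be followed. WRKY22, a transcription factor of immune signalling, measured 9.18, 8.88 and 6.75 on ACC, against 6.96, 6.50 and 8.99 on control medium. ACC replicates 1 and 2 and control replicate 3 were high and the other arrays low, and the difference was 0.78 ± 0.52 (adjusted p = 0.813, and 0.156 without ACC replicate 3). WRKY53, a factor of senescence and defence, differed by 0.26 ± 0.25 (adjusted p = 0.927) and WRKY6 by -0.17 ± 0.20 (adjusted p = 0.959). In the hypoxia list, 7 of 19 could be followed and 0 passed, at a median of 0.41, or 0.12 without ACC replicate 3. AT1G19530 measured 7.82, 8.00 and 7.83 on ACC, against 5.26, 6.47 and 6.12 on control medium. It had groups apart and the highest difference of these lists among genes that did not pass, 1.93 ± 0.55 (adjusted p = 0.12, and 0.118 without ACC replicate 3). AT2G41730, from the mitochondrial stress list (5 of 15 followed, 0 past, median -0.28 and, without ACC replicate 3, 0.04), measured 9.77, 7.66 and 8.10 on ACC, against 11.78, 11.65 and 9.26 on control medium. Control replicate 3 was below ACC replicate 1, and the difference of -2.39 ± 0.88 did not pass (adjusted p = 0.359), while at 4 h it was -3.54 ± 0.88 (adjusted p = 0.0129).

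The remaining lists held few measured genes and no call with or without ACC replicate 3. Of 22 iron deficiency genes 4 could be followed, at a median of 0.20, or 0.60 without ACC replicate 3, with AT3G13610, the coumarin synthesis enzyme F6'H1, at 0.51 ± 0.49 and the regulator BHLH101 at -0.22 ± 0.45. Their median on ACC replicate 3 was -0.87, against 0.65 and 0.56 on ACC replicates 1 and 2. Flavonoid synthesis had 4 of 18 genes at a median of -0.13, among them UGT78D1 and UGT78D2, which add sugars to flavonols, at -0.40 ± 0.28 and 0.27 ± 0.21. For phenylpropanoid and lignin synthesis 2 of 15 genes could be followed: CCR2 differed by -0.20 ± 0.31 and HCT by 0.03 ± 0.21. The response regulators RR16 and ARR15, 2 of 16 cytokinin genes, differed by 0.11 ± 0.23 and -0.10 ± 0.16. The cell cycle genes HTR12, the centromeric histone, and PRL, a subunit of the replication helicase, 2 of 24 listed, differed by -0.16 ± 0.14 and 0.03 ± 0.13. The defensin PDF1.2, the only 1 of 19 jasmonate genes, differed by 0.02 ± 0.23. The plot of the gene lists shows each measured member of the lists with at least 3.

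**Figure D4:**
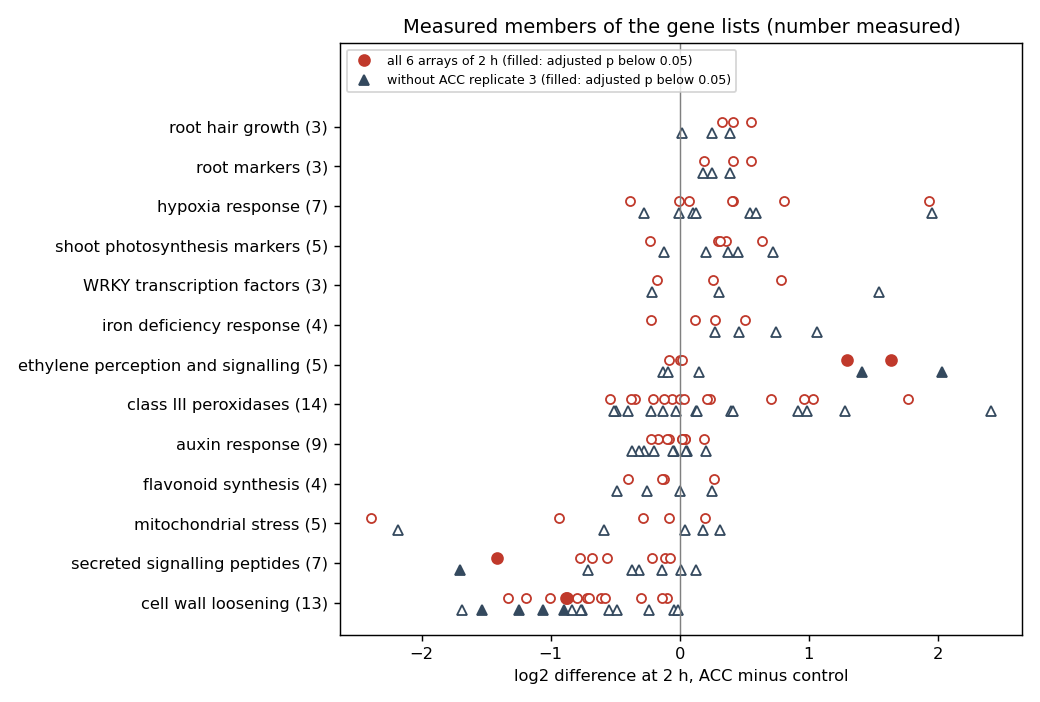
Log2 difference at 2 h of the measured members of each gene list with at least 3, with all 6 arrays (circles) and without ACC replicate 3 (triangles), filled where the adjusted p is below 0.05. The filled points are RTE1 and ARL above 0, and CEP5 and members of the cell wall loosening list below 0.

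The tissue was checked against markers. PYK10, an abundant beta-glucosidase of roots, measured 14.14, 14.39 and 14.29 on ACC, against 13.94, 14.07 and 14.24 on control medium, with EXPA7 and EXPA18 the other 2 of 25 root markers that could be followed and 0 of the 3 past the threshold. Of 27 shoot photosynthesis and leaf markers 5 could be followed and 0 passed. Their summed linear signal was 907, 933 and 807 on ACC, against 660.1, 691 and 646 on control medium, so that the groups did not overlap. Such a sum is set mostly by the brightest markers. Taken singly, 4 of the 5 had a difference above 0 and 1 below. The one below was FMA, at -0.23 ± 0.11 (adjusted p = 0.569), with all ACC arrays below all control arrays. RCA, rubisco activase, measured 8.35, 8.46 and 8.15 on ACC, against 7.62, 7.64 and 7.78 on control medium (difference 0.64 ± 0.28, adjusted p = 0.54). The part of these markers in the results above was not tested.

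Among gene families taken by symbol, 1 of 14 bZIP genes and 1 of 15 IQD genes rose, bZIP44 and iqd15, at family medians of 0.01 and -0.12. Of all tested probe sets 0.273% rose and 0.119% fell, and without ACC replicate 3 these shares were 0.906% and 0.695%. Of 29 serine carboxypeptidase-like genes 1 fell, scpl28, at a median of -0.11. Of 26 cytochrome P450 genes 0 passed, and 1 rose without ACC replicate 3, CYP71B29. Of 14 SWEET sugar transporters 0 passed, and 1 fell without ACC replicate 3, SWEET13. CYP71B29 and SWEET13 are named after their values were seen.

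The genes called at 2 h were then followed over the other times, whose contrasts use other arrays. All contrasts share the same estimate of the spread of a probe set, so calls at different times are not independent. Over the 62 probe sets called higher at 2 h the median difference was -0.06 at 0 h, 0.25 at 0.5 h, 0.64 at 1 h, 0.92 at 2 h, 0.93 at 4 h, 1.00 at 8 h, 0.98 at 12 h and 0.87 at 24 h. They were chosen on the 2 h arrays, so the 2 h value is the one the choice favours. Over the 27 called lower the medians were 0.02, -0.20, -0.44, -0.80, -0.78, -0.76, -0.71 and -0.61 in the same order of times. Both lists were near 0 at 0 h, were part of the way at 1 h and had medians near that of 2 h from 4 to 12 h.

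Of the 62 higher probe sets, 4 were also called higher at 0.5 h, when 56 were called in all (0.246%), and 23 at 1 h, when 63 were called (0.277%). The 23 are 37.1% of the 62 and 47.9% of the 48 called higher at 1 h. At 4 h, when 951 were called (4.18%), 54 of the 62 were called higher, which is 87.1% of the 62 and 11.5% of the 469. At 8 h, with 1113 called (4.89%), it was 53, and at 24 h, with 1237 called (5.44%), it was 46. Of the 27 lower probe sets, 2 were called lower at 1 h, 20 at 4 h (74.1% of the 27 and 4.15% of the 482), 21 at 8 h and 16 at 24 h. None of the 89 was called in the opposite direction at any of these times.

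The values of single genes at other times were as follows. RTE1 was at 0.38 ± 0.15 at 0.5 h (adjusted p = 0.267), 1.04 ± 0.15 at 1 h (adjusted p = 0.000371), 1.09 ± 0.15 at 4 h and 1.37 ± 0.15 at 24 h. AT2G39980 was at 1.89 ± 0.30 at 1 h and 2.96 ± 0.30 at 4 h, and AT4G38410, the dehydrin, was at 0.98 ± 0.29 at 1 h (adjusted p = 0.191) and 2.77 ± 0.29 at 4 h (adjusted p = 1.53e-07). AT4G26880, of the Stig1 family, had a difference of -0.59 ± 0.24 at 0.5 h, 0.73 ± 0.24 at 1 h and 0.90 ± 0.24 at 4 h. IAGLU was at 0.39 ± 0.20 at 1 h, 0.78 ± 0.20 at 4 h (adjusted p = 0.0163) and 0.36 ± 0.20 at 8 h (adjusted p = 0.423). SGT1A was at 0.39 ± 0.19 at 1 h, 0.69 ± 0.19 at 4 h (adjusted p = 0.0297) and 0.42 ± 0.19 at 8 h (adjusted p = 0.277).

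Of the genes that fell, CEP5 (AT5G66815) was at -1.22 ± 0.29 at 1 h (adjusted p = 0.0622), -1.62 ± 0.29 at 4 h, -2.92 ± 0.29 at 8 h, -3.01 ± 0.29 at 12 h and -2.18 ± 0.29 at 24 h. EXPA8 was at -0.10 ± 0.19 at 1 h and -1.13 ± 0.19 at 8 h (adjusted p = 0.00022). XTH19 was at -0.85 ± 0.21 at 1 h, -0.78 ± 0.21 at 4 h (adjusted p = 0.0257) and -0.05 ± 0.21 at 24 h (adjusted p = 0.943). AT2G44230 was at -0.16 ± 0.16 at 4 h (adjusted p = 0.757) and -0.89 ± 0.16 at 24 h (adjusted p = 0.000474). Among the genes called without ACC replicate 3 and not with it, AT5G40590 was at 2.87 ± 0.57 at 0.5 h and 4.05 ± 0.57 at 4 h, and AT5G48430 at 3.00 ± 0.62 and 4.49 ± 0.62, all 4 past the threshold. AT2G36690 and GSTU26 were not past it at 4 h, at 1.05 ± 0.43 and -1.63 ± 0.55 (adjusted p = 0.203 and 0.0917).

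**Figure D5:**
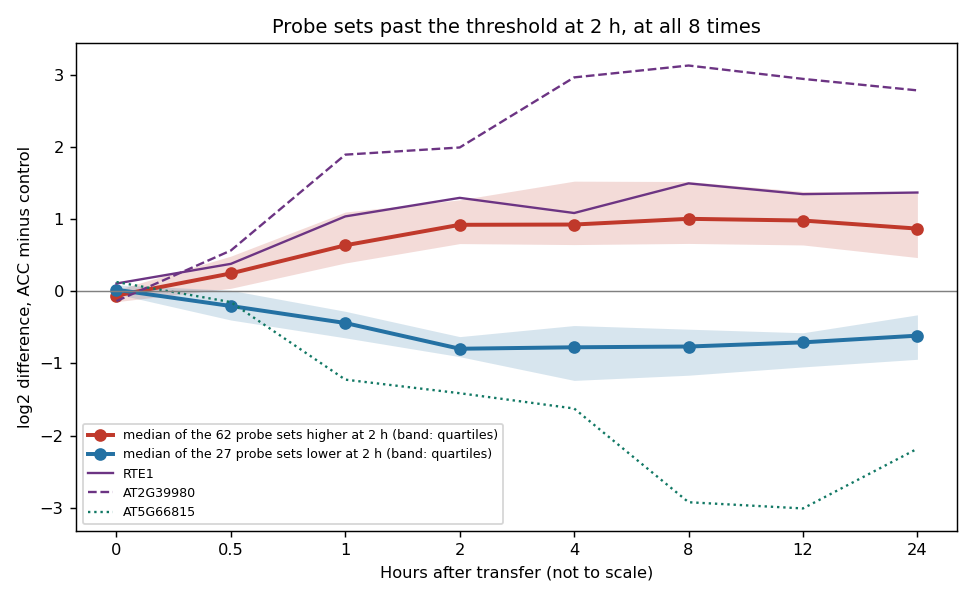
Log2 difference of ACC minus control medium at the 8 times for the probe sets called at 2 h (medians as thick lines, quartiles as bands) and for RTE1, AT2G39980 and AT5G66815. The median of the 62 higher probe sets was 0.64 at 1 h, 0.92 at 2 h and 0.93 at 4 h.

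The changes of the ACC difference between neighbouring times were tested directly. Between 2 h and 1 h, 0 probe sets passed in limma (0.0%), with 660 (2.90%) at an unadjusted p below 0.05. Between 4 h and 2 h also 0 passed (0.0%), with 649 (2.85%) at an unadjusted p below 0.05 and a lowest adjusted p of 0.103. Genes that were called at 2 h and not at 1 h, or at 4 h and not at 2 h, are therefore not shown to differ between these times. For CEP5 (AT5G66815) the 2 h difference minus the 1 h difference was -0.19, and for AT4G38410 the difference at 4 h exceeded that at 2 h by 1.49 (adjusted p = 1).

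Last, each medium at 2 h was set against its own arrays of 0 h. ACC roots at 2 h differed from ACC roots at 0 h for 427 probe sets (1.88%), 244 higher and 183 lower. Control roots at 2 h differed from control roots at 0 h for 0 in limma (0.0%), with 509 (2.24%) at an unadjusted p below 0.05. RTE1 differed by 1.21 between the ACC roots (adjusted p = 1.16e-05) and by 0.02 between the control roots. For AT2G39980 the values were 2.51 (adjusted p = 3.79e-06) and 0.38, for AT5G48430 3.67 (adjusted p = 0.000446) and 0.79, and for CEP5 (AT5G66815) -1.50 (adjusted p = 0.00318) and 0.04. XTH19, called at 2 h against control roots, had -0.54 between the ACC roots (adjusted p = 0.231) and 0.39 between the control roots. The ACC arrays of 2 h enter both this comparison and the main one. The counts within each medium do not test whether the media differ in their change from 0 h. Tested directly in limma, the 2 h difference less that at 0 h called 6 probe sets (6 higher, 0 lower). Of the 29 named calls, 2 held in that test.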

How the data were processed

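Per the labels' protocols, about 5 µg of RNA from each root sample was labelled with biotin by the standard 3' Affymetrix method. The log2 values are those the authors deposited, 1 column per array. For these values the log base, the probe summary and the normalization were not given in the sources used here. Array means at 2 h were all 7.70 and medians 7.52 to 7.59, so differences are relative to the average probe set. Of 22810 probe sets, 64 controls and 7 with an exact 0 were left out. Of those not controls, 13513 had 1 gene symbol in the platform annotation, 503 several, and 8730 were not listed and are unnamed here. RefSeq (TAIR10.1) updated symbols for 13436.

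Groups follow the medium and the time in the titles. A 1 h ACC array whose agent label names auxin was kept. limma 3.58.1 in R 4.3.3 fitted 1 mean per group to all 48 arrays (32 residual degrees of freedom, prior 3.99), with Benjamini-Hochberg adjustment over 22739 probe sets and a threshold of 0.05. The median residual SD was 0.172 and the median SE of a 2 h difference 0.140. The number of arrays limits this precision, and an exact permutation test of 3 against 3 arrays cannot go below 0.1. The scripts were checked on simulated data.

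Replicate numbers pair the samples: deviations from the group mean correlated at 0.384, 0.362 and 0.410 for ACC and control arrays of the same number (the limit was 0.1), against -0.304 to 0.0256 for differing numbers. The block was an alternative, as were quantile normalization, a filter, an intensity trend, array weights, a covariate, a log2 threshold of 1, smaller fits and leaving out single arrays.

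The members, gene lists and tests were chosen with earlier results of these data known. Named genes were up to 15 called in each direction by size, up to 10 in each direction called only without ACC replicate 3, the 3 measured members of each of 20 lists with the largest absolute difference, and 20 genes named whatever their values. A gene with several probe sets is given by the brightest.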

Additional observations from a re-analysis of the deposited data

How the results depend on the processing

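The number of probe sets called at 2 h, 89 (62 higher, 27 lower), kept within 1.5 times under quantile normalization (66 and 29), a filter on dim probe sets (86 and 38), an intensity trend, the covariate of RNA quality and removal of the 1 h array with the auxin label. Array weights gave 501 (271 higher, 230 lower), the replicate block 162 (104 and 58), and the block without ACC replicate 3, chosen after seeing the data, 451 (259 and 192). Removing replicate 3 at all times gave 418 (204 and 214). The 6 arrays alone gave 0 (0 and 0), and the 5 arrays without ACC replicate 3, an alternative added after seeing the data, gave 3 (2 and 1): AT1G26250, AT5G66815 and an unnamed probe set. A log2 difference of at least 1 left 29 (24 and 5), the 2 h difference less that at 0 h 6 (6 and 0), and setting ACC arrays of 0 h in place of the control arrays, also added later, gave 427 (244 and 183). Leaving out 1 array of 2 h gave 23 to 364 (19 to 206 higher, 2 to 158 lower). The change between 1 and 2 h had 0 calls throughout. That between 2 and 4 h had 1 call with the replicate block (0 higher, 1 lower) and 0 to 2 when 1 array was left out (0 to 1 higher, 0 to 1 lower), the 2 without ACC replicate 2. The cause of these shifts was not tested. The smaller fits also hold fewer arrays, and the part of that was not tested either. Among the 29 genes past the threshold, no difference changed sign. Some named genes that did not pass did change sign when ACC replicate 3 was left out. GH3.3, for example, moved from -0.17 to 0.21 and BHLH101 from -0.22 to 0.27, and both stayed short of the threshold in each fit. Of the 29 named calls, all held with the block and without ACC replicate 3, 28 after quantile normalization, 26 with the covariate, 0 on the 6 arrays alone, and 2 once the difference at 0 h was subtracted. With the block, 6 of the 65 other named genes passed the threshold: AT5G48430, AT4G21870, AT2G47550, AT3G18560, AT4G25250 and EXPB1.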
